A study of Mus musculus with 18 samples.

Results

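The 10 genes described here are the 7 sirtuins (Sirt1 to Sirt7) and 3 genes of NAD metabolism, Cd38, Bst1 and Nampt. They were picked by name from 55416 genes listed for mouse ovary, with earlier results of these data known. Of the 10, 9 had enough counts to be tested among 16959 genes; Bst1 did not. The ovaries came from 18 wildtype female Balb/c mice, with 1 library per mouse and 6 mice in each of 3 groups. YC mice were 8 weeks old and received distilled water. OC mice were 40 weeks old and also received water. OC+SM mice were 40 weeks old and received Samul-tang, a herbal decoction, at 2.5 g/kg. Water or decoction was given 5 times a week over 4 weeks. All 3 groups were superovulated with 5 IU PMSG (pregnant mare serum gonadotropin) and, 48 h later, 5 IU hCG (human chorionic gonadotropin). Ovaries were collected 16 h after hCG, so the YC and OC controls are stimulated ovaries too. Aged mice with and without the decoction were kept apart inside shared cages, and cage partners were not analysed here.

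NAD is a redox cofactor and also a substrate that some enzymes cut. Sirtuins use it to remove acetyl or other acyl groups from proteins, and release nicotinamide. Nampt carries out the rate-limiting step that turns nicotinamide back towards NAD. Cd38 and its neighbour and paralog Bst1 encode NAD glycohydrolases, which split NAD into nicotinamide and ADP-ribose or its cyclic form. In the ovary, sirtuins are mostly studied in oocyte quality and the response to oxidative stress, and Cd38 is best known as a surface protein of immune cells.

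Libraries held 9.05 to 14.15 units of 1000000 counts in YC, 11.61 to 13.43 in OC and 14.2 to 20.35 in OC+SM. At this depth 1 count per 1000000 after TMM scaling (CPM) stood for 9.3 to 21.7 counts. The most abundant gene, which had no symbol in the tables used, took 12.58% to 15.95% of counts in YC, 13.81% to 18.49% in OC and 6.2% to 14.35% in OC+SM. Depth in OC+SM did not overlap with that of OC or of YC. Library YC 3 was the shallowest, and OC+SM 3 the deepest. The ovary label was checked against markers, and oocyte, granulosa and luteal transcripts were present in every library. Summed oocyte markers lay between 121 and 181 CPM in YC, 35.7 and 64.9 CPM in OC and 34.2 and 68.6 CPM in OC+SM. In whole ovary, fewer cells of a type and less RNA per cell cannot be told apart.

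Because Cd38 and Nampt were the members called in any comparison, the 250 bases before their start sites are shown, from RefSeq (GRCm38.p6), 5′ to 3′ on the coding strand. Capitals mark GC boxes (GGGCGG on either strand). The Cd38 stretch lies at chr5:43868559-43868808 (plus strand), and the Nampt stretch at chr12:32820085-32820334 (plus strand).

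Cd38: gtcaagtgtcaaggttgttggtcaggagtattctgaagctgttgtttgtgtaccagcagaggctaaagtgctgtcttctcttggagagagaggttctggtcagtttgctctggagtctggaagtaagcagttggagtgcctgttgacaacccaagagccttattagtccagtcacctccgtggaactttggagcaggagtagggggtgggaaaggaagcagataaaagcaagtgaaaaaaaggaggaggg

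Nampt: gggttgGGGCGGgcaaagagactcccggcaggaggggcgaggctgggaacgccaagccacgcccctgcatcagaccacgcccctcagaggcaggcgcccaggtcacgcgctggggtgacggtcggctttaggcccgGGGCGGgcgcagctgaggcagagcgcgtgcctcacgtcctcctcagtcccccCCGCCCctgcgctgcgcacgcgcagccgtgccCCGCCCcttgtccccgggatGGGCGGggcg

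The pair differ in base composition: 48.8% of the Cd38 stretch and 75.6% of the Nampt stretch were G or C. Nampt held 5 GC boxes and Cd38 none. The Cd38 stretch also lacked the other 6 motifs searched on both strands, which were the E-box (CACGTG), the CCAAT box (CCAAT), the TATA box (TATAAA), the cyclic AMP response element (TGACGTCA), the AP-1 site (TGANTCA) and the core of the interferon-stimulated response element. RefSeq gave 11 such stretches for 9 of the 10 members, and none was at hand for Bst1. A GC box stood in 7 of those 11, against 32.7% of all 32851 stretches of this length. Sirt1 had 6 GC boxes and was the member with an E-box, with 2, against 6.02% of all stretches with at least 1. These matches describe letters and not bound sites.

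No sirtuin passed the test between 40-week and 8-week control ovaries. With the edgeR quasi-likelihood test, 0 of 7 passed an adjusted p of 0.05, while 11.3% of all genes tested did. At an unadjusted p under 0.05 there was 1 sirtuin, Sirt7, beside 24.0% of all genes. DESeq2 and limma called 0 sirtuins, while DESeq2 called 2252 of all 16959 genes. The median log2 fold change of the 7 was 0.02, beside 0.01 for all genes, and single values ran from -0.15 to 0.24. Each sirtuin is described below by the compartment of its protein, with levels as TMM-scaled CPM.

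Sirt1, Sirt6 and Sirt7 encode the mainly nuclear sirtuins. Sirt1, a deacetylase of p53, FOXO factors and PGC-1α, ran from 18.7 to 24.5 CPM (median 21.0) in YC and from 16.8 to 22.9 CPM (median 20.4) in OC. In OC+SM it ran from 18.6 to 23.6 CPM (median 21.0). The 3 ranges overlapped almost entirely, and the OC against YC log2 fold change was -0.10 ± 0.09 (SE; 95% interval -0.29 to 0.09; edgeR adjusted p = 0.575). Sirt6, which acts on chromatin at telomeres and DNA breaks, ran from 7.56 to 10.1 CPM (median 9.05) in YC, from 7.56 to 10.6 CPM (median 10.2) in OC and from 6.90 to 12.0 CPM (median 9.40) in OC+SM. Its lowest YC and OC libraries were level, and the OC against YC difference was 0.10 ± 0.13 log2 (interval -0.17 to 0.37; edgeR adjusted p = 0.704).

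Sirt7, a sirtuin of the nucleolus, had the lowest p of the sirtuins in this comparison. It ran from 22.4 to 27.5 CPM (median 25.4) in YC, from 24.0 to 33.3 CPM (median 29.7) in OC and from 26.1 to 36.6 CPM (median 28.8) in OC+SM. In both aged groups 5 of 6 libraries lay above the highest YC library, with 1 OC library (24.0 CPM) among the YC values. The log2 fold change was 0.23 ± 0.09 for OC against YC (interval 0.04 to 0.41; edgeR adjusted p = 0.115) and 0.22 ± 0.09 for OC+SM against YC (adjusted p = 0.0760). Neither passed after adjustment, and these comparisons share the YC libraries. RSEM divided reads between Sirt7 and other genes in 18 of 18 libraries, as fractional counts show, so its level is less certain than that of the members with whole counts.

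Sirt2, the mainly cytosolic sirtuin and a tubulin deacetylase, was the most abundant sirtuin by CPM and by TPM. It ran from 32.4 to 47.0 CPM (median 38.6) in YC, from 36.1 to 41.8 CPM (median 40.0) in OC and from 39.8 to 47.3 CPM (median 43.2) in OC+SM. The OC range sat inside the YC range, with a log2 fold change of 0.02 ± 0.08 (interval -0.14 to 0.18; edgeR adjusted p = 0.928). In OC+SM 4 of 6 libraries exceeded the highest OC library, yet the difference of 0.12 ± 0.08 did not pass (interval -0.04 to 0.28; adjusted p = 0.453).

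Sirt3, Sirt4 and Sirt5 encode the mitochondrial sirtuins. Sirt3, the main mitochondrial deacetylase, ran from 10.3 to 16.8 CPM (median 13.1) in YC, from 7.99 to 13.5 CPM (median 12.5) in OC and from 7.98 to 16.5 CPM (median 11.9) in OC+SM. Its lowest libraries were in the aged groups, but the ranges overlapped and the OC against YC difference was -0.15 ± 0.16 log2 (interval -0.47 to 0.17; edgeR adjusted p = 0.617). Sirt3 overlaps Ric8a in the mouse annotation and had fractional counts in 17 libraries. Ric8a itself did not pass for OC against YC (log2 fold change 0.11, adjusted p = 0.480). It did pass for OC+SM against YC (log2 fold change 0.26, edgeR adjusted p = 0.0391).

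Sirt4, a mitochondrial sirtuin with weak deacetylase activity, ran from 4.07 to 5.48 CPM (median 4.71) in YC, from 3.85 to 5.18 CPM (median 4.68) in OC and from 4.00 to 8.41 CPM (median 5.17) in OC+SM. A single OC+SM library at 8.41 CPM stood above all others. The difference was -0.04 ± 0.17 log2 for OC against YC (edgeR adjusted p = 0.919) and 0.23 ± 0.17 for OC+SM against OC (adjusted p = 0.517). Sirt5, which removes succinyl and malonyl groups, ran from 10.03 to 16.3 CPM (median 12.5) in YC, from 12.9 to 16.4 CPM (median 15.2) in OC and from 12.5 to 18.02 CPM (median 14.9) in OC+SM. All 6 OC libraries were above the YC median but 1 of 6 was above the YC maximum, and the difference of 0.24 ± 0.13 log2 did not pass (interval -0.03 to 0.50; adjusted p = 0.271).

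**Figure D1:**
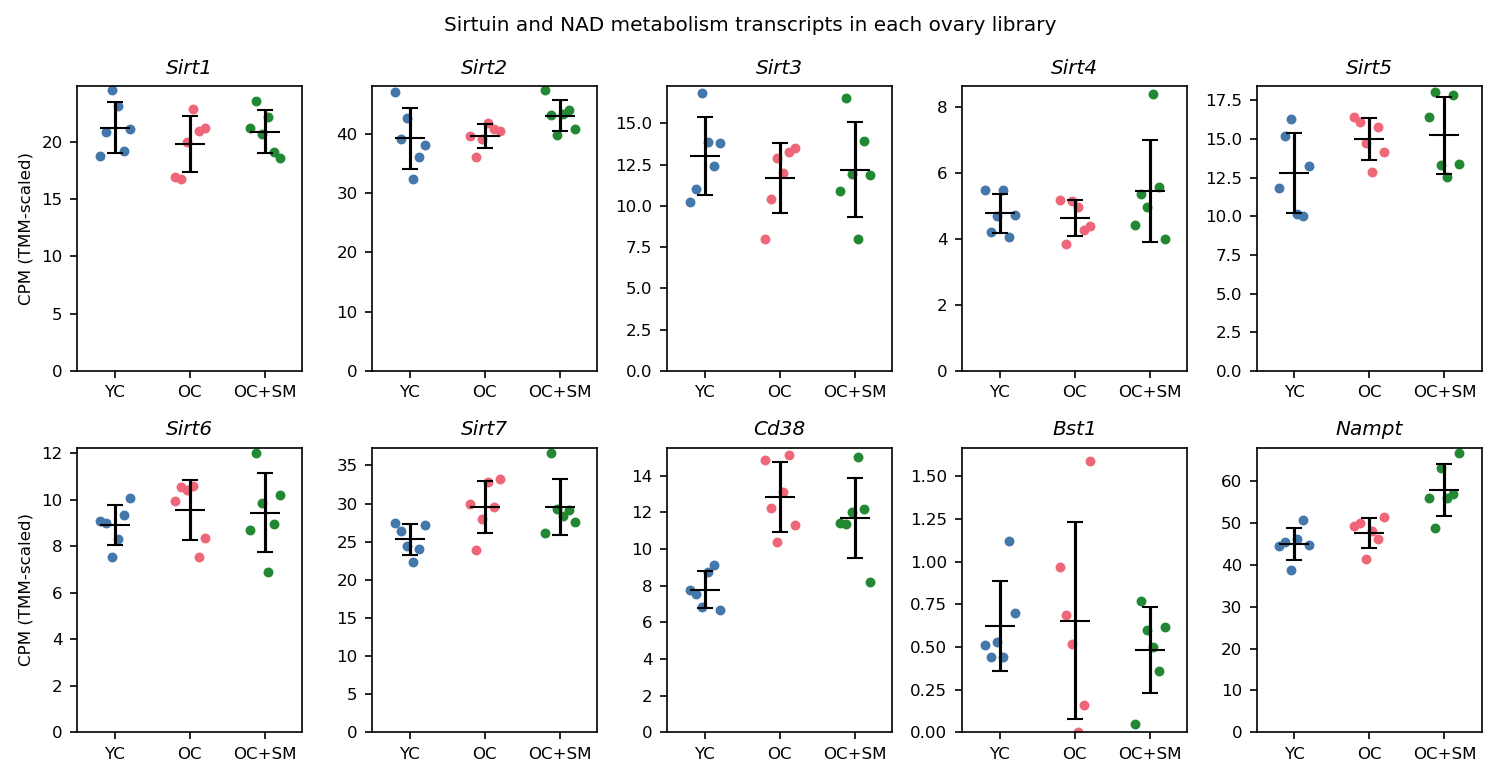
TMM-scaled CPM (vertical axis, starting at 0) of the 10 genes in the YC, OC and OC+SM groups, 1 point per library, with the mean and SD over n = 6 as bars. The Cd38 points of OC all lie above those of YC, 5 of 6 OC+SM points of Nampt lie above the highest OC point, and the sirtuin groups overlap.

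The comparison of aged ovaries with and without the decoction (OC+SM against OC) called no sirtuin either. In it, 0 of 7 passed in edgeR, while 1.04% of all genes did (0.548% higher). At an unadjusted p under 0.05 there were 0 sirtuins, beside 16.9% of all genes, and DESeq2 and limma called 0. The median log2 fold change of the 7 was 0.06, beside 0.01 for all genes. The intervals bound what could have been missed: the widest, that of Sirt4, ran from -0.12 to 0.57, and that of Sirt7 from -0.19 to 0.18. In OC+SM against YC, 0 of 7 passed again, beside 22.4% of all genes. At an unadjusted p under 0.05 there was 1, beside 33.9% of all genes, and DESeq2 and limma called 0. The median there was 0.14. Sirt5 had a difference of 0.26 ± 0.13 (edgeR adjusted p = 0.149), which passed once YC 3 and OC+SM 6 were both left out (0.37, adjusted p = 0.0385).

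Cd38 was higher in 40-week than in 8-week control ovaries. It was the 1 member called among the 9 tested for OC against YC, where 5.25% of all genes were called higher. YC libraries ran from 6.67 to 9.12 CPM (median 7.66) and OC libraries from 10.4 to 15.1 CPM (median 12.7), from 64 to 130 and 121 to 188 counts. The groups did not overlap, as was so for 3.21% of genes in this direction. Means were 7.78 ± 1.00 CPM in YC and 12.8 ± 1.89 CPM in OC (SD, n = 6), a fold of 1.64 (95% interval 1.36 to 1.99), with a log2 fold change of 0.72 ± 0.13 (edgeR adjusted p = 0.000814). Cd38 ranked 374 of 16959 by p. Its direction and call held in 30 of 30 alternatives, at 0.50 to 0.77 log2.

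In OC+SM, Cd38 ran from 8.18 to 15.02 CPM (median 11.7), and 5 of 6 libraries were above the highest YC library. The exception was OC+SM 6, at 8.18 CPM. Against YC the log2 fold change was 0.58 ± 0.13 (fold 1.499; edgeR adjusted p = 0.00287). Against OC it was -0.13 ± 0.13 (interval -0.40 to 0.13; adjusted p = 0.653), and none of the 6 OC+SM libraries exceeded the highest OC library. A difference between the aged groups was therefore not detectable, within that interval. Gm16015, which overlaps Cd38 in the annotation, had 0 counts in all libraries.

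Markers of several cell types moved between YC and OC beside Cd38, and their part in the Cd38 difference was not tested. Endothelial markers summed to 270 to 306 CPM in YC and 319 to 352 CPM in OC, without overlap, and 3 of 9 were called higher (Plvap, Emcn and Kdr) and 2 lower. They ran from 197 to 333 CPM in OC+SM, with OC+SM 6 lowest. Luteal and steroidogenic markers summed to 10267 to 13564 CPM in YC and 15159 to 17399 CPM in OC, also without overlap. Of these, 2 of 8 were called higher. Other lists had markers called lower and none higher. These were oocyte (10 of 10 tested), granulosa (5 of 10), smooth muscle and pericyte (4 of 7) and stromal fibroblast markers (3 of 8). Theca and interstitial (3 of 6) and surface epithelium and mesothelium markers (2 of 6) did too. Log2 fold changes were positive for 3 of 10 granulosa, 2 of 7 smooth muscle and pericyte and 2 of 6 theca and interstitial markers. They were also positive for 4 of 6 surface epithelium and mesothelium markers, and for none of the tested oocyte or stromal fibroblast markers. Of all genes, 5.25% were called higher and 6.03% lower.

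Among immune cells, macrophage markers overlapped between YC (249 to 478 CPM) and OC (329 to 444 CPM), with 1 of 12 called higher, C1qa. Their median log2 fold change was -0.01, with 6 of 12 positive. Lipid-laden macrophage markers ran from 375 to 472 CPM in YC and 416 to 574 CPM in OC, with 1 of 6 called higher, Gpnmb. B and plasma cell markers ran from 2.63 to 8.95 CPM in YC and 8.39 to 15.8 CPM in OC. Igkc (1.81 ± 0.47 log2) and Jchain (1.45 ± 0.38 log2) were called higher. They were the 2 of 4 tested with a positive log2 fold change, and the lowest of the 4 was at -0.25. T and NK cell markers ran from 1.75 to 5.54 CPM in YC and 4.59 to 8.52 CPM in OC, with Trbc2 the 1 of 3 tested that was called higher (1.34 ± 0.28 log2). Cd79a and Cd79b, subunits of the B cell receptor complex, had from 0 to 9 counts in a library. In OC+SM, macrophage markers ran from 373 to 562 CPM and lipid-laden macrophage markers from 432 to 654 CPM.

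Library OC+SM 6, the lowest of its group for Cd38 and endothelial markers, stood apart in other lists too. It had the highest sums of all 18 libraries for macrophage (562 CPM), surface epithelium and mesothelium (128 CPM), theca and interstitial (3061 CPM) and adipocyte markers (104 CPM), and the lowest for oocyte markers (34.2 CPM). Without it the log2 fold change of Cd38 was 0.66 against YC (edgeR adjusted p = 0.000425) and -0.05 against OC (adjusted p up to 0.885 over all alternatives).

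**Figure D2:**
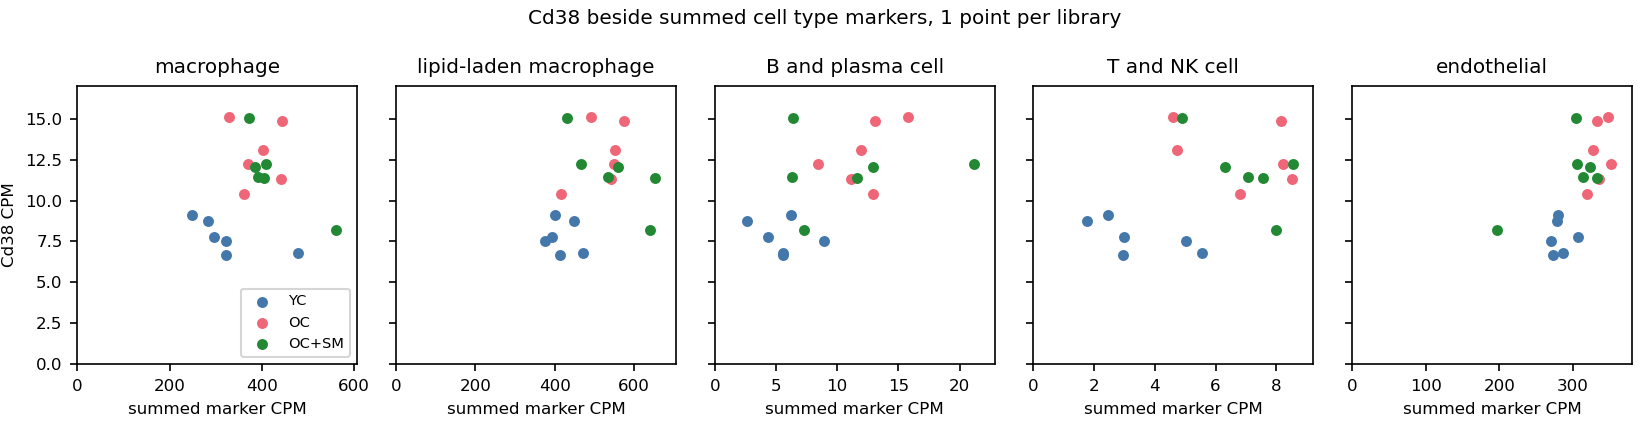
Cd38 in CPM (vertical axis) against the summed CPM of 5 marker lists (horizontal axes), 1 point per library and coloured by group (n = 6 each). Endothelial sums separate YC from OC as Cd38 does, macrophage sums of the groups overlap, and OC+SM 6 has the lowest endothelial sum at 197 CPM. Luteal sums (higher in OC) and oocyte sums (lower in OC), which are not plotted, also separate YC from OC.

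Bst1, the paralog next to Cd38 on chromosome 5, was near the detection limit. It ran from 0.439 to 1.12 CPM (median 0.523) in YC, from 0 to 1.59 CPM (median 0.601) in OC and from 0.0534 to 0.774 CPM (median 0.551) in OC+SM, with at most 20 counts in a library. The groups overlapped throughout, and the OC group held both the lowest and the highest library. The mean difference was 0.0286 CPM for OC minus YC (two-sided exact permutation test over 924 regroupings, p = 0.913). Between OC+SM and OC it was -0.170 CPM (exact permutation p = 0.541) and for OC+SM minus YC -0.142 CPM (exact permutation p = 0.385). Adjusted over the 3 comparisons these became 0.913, 0.812 and 0.812, and the smallest p this design allows is 0.00216.

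Nampt was highest in the decoction-treated ovaries. It ran from 38.7 to 50.6 CPM (median 45.1) in YC, from 41.3 to 51.3 CPM (median 48.6) in OC and from 48.7 to 66.6 CPM (median 56.4) in OC+SM. The control groups overlapped, and 5 of 6 OC+SM libraries were above the highest library of either. Means were 45.0 ± 3.82, 47.6 ± 3.58 and 57.8 ± 6.21 CPM (SD, n = 6). Against YC the log2 fold change of OC+SM was 0.36 ± 0.08 (fold 1.28, interval 1.15 to 1.43; edgeR adjusted p = 0.00160). With Cd38 this made 2 of 9 tested members called higher, beside 11.5% of all genes.

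Age and treatment both differ in that comparison, and the single steps gave less. For OC against YC the difference in Nampt was 0.08 ± 0.08 (interval -0.08 to 0.24; edgeR adjusted p = 0.587). The decoction comparison, OC+SM against OC, gave 0.28 ± 0.08 (fold 1.21; interval 0.12 to 0.44 log2), with an edgeR adjusted p of 0.0666. It therefore missed the threshold, and 0 of 9 tested members passed for OC+SM against OC in edgeR, beside 1.04% of all genes. At an unadjusted p under 0.05 there was 1 of 9, beside 16.9% of all genes. DESeq2 called 1 member, beside 663 of all 16959 genes, and limma 0. The 1 was Nampt in each case. Leaving out a single library brought Nampt past the threshold for YC 3 (adjusted p = 0.0415), OC+SM 2 (0.0450) or OC+SM 4 (0.0493), and DESeq2 gave 0.0308. The share of the most abundant gene was also tried as a covariate, an alternative chosen after the data were seen. The log2 fold change stayed at 0.28, with an edgeR adjusted p of 0.513 (0.0139 before adjustment). That share was mostly lower in OC+SM (6.2% to 14.35%) than in OC (13.81% to 18.49%) or YC (12.58% to 15.95%). In comparisons with OC+SM, the covariate and the treatment therefore cannot be fully told apart. After all libraries were thinned to the lowest total, the log2 fold change was 0.30, with an adjusted p of 0.0546. Library OC+SM 6, which stood apart in its markers, had the highest Nampt level, and without it the log2 fold change was 0.24 against OC (edgeR adjusted p = 0.1005) and 0.31 against YC (adjusted p = 0.00381).

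**Figure D3:**
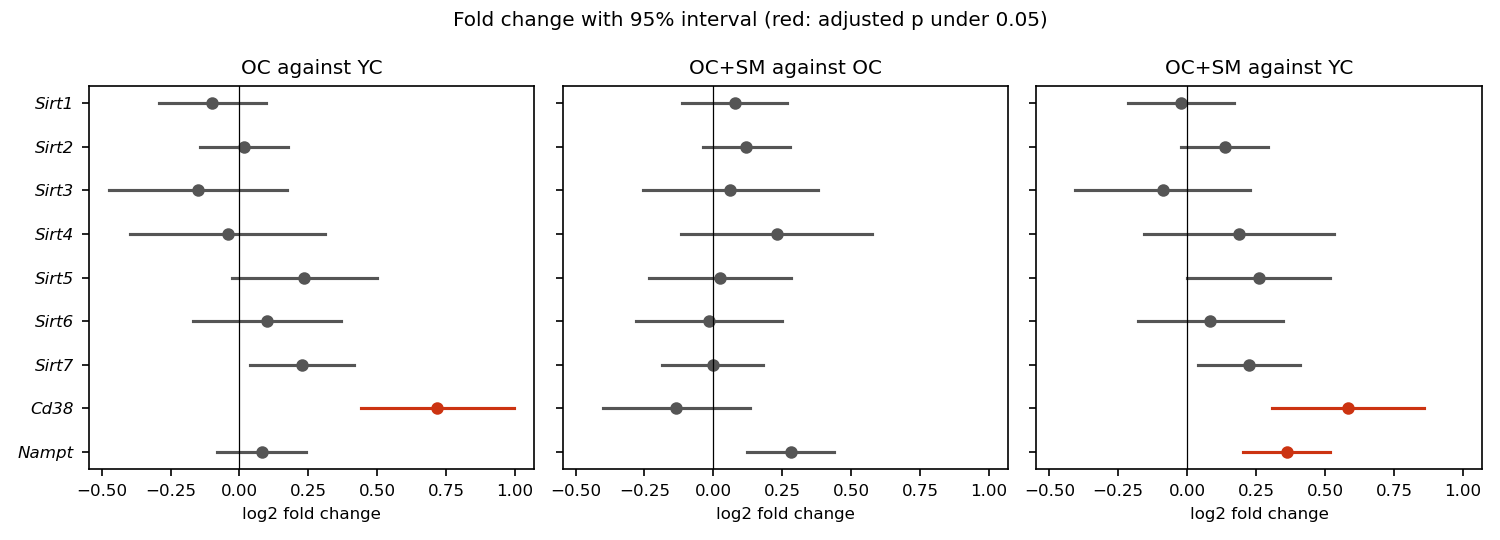
Log2 fold changes of the 9 tested members (points) with 95% intervals (lines) for OC against YC, OC+SM against OC and OC+SM against YC, in red where the edgeR adjusted p was under 0.05. Cd38 at 0.72 and 0.58 and Nampt at 0.36 are red, and the interval of every sirtuin other than Sirt7 includes 0 in all 3 panels.

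Levels between genes were compared on the authors' TPM scale, which divides by length, although 3′ tags do not grow with length. In YC the order was Sirt2 (26.5 TPM), Sirt7 (14.6), Sirt1 (10.9), Sirt3 (10.002), Nampt (9.93), Sirt5 (8.39), Sirt4 (6.73), Sirt6 (5.14), Cd38 (2.58) and Bst1 (0.347). Of these neighbours, Sirt2 and Sirt7, Sirt6 and Cd38, and Cd38 and Bst1 did not overlap over the 6 libraries, and the rest did. In OC, Cd38 reached 4.12 TPM and its range met that of Sirt6 (5.40 TPM). In OC+SM, Nampt stood after Sirt2 and Sirt7 at 12.2 TPM, and Cd38 was at 3.66 TPM. On the TPM scale Sirt2 and Sirt7 led in all 3 groups and did not overlap with each other, and Cd38 and Bst1 were last. In CPM, which is not divided by length, Nampt came first in each group. By mean CPM, Cd38 had rank 8 in YC, 6 in OC and 7 in OC+SM, above Sirt4 in each.

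The other genes that make NAD held few that passed. Among 11 genes of the salvage and Preiss-Handler routes beside Nampt, such as Nmnat1, Naprt and Nadsyn1, 9 were tested. For OC against YC, 0 were called in edgeR, DESeq2 or limma, beside 11.3% of all genes in edgeR. At an unadjusted p under 0.05 there were 0, beside 24.0% of all genes. The median log2 fold change of the 9 was 0.11. Of 9 genes of de novo synthesis from tryptophan, 2 were tested. In edgeR, DESeq2 or limma 0 were called, with 0 at an unadjusted p under 0.05. Pnp, which releases the base from nucleosides, was higher in OC+SM than in YC (0.34 ± 0.10; edgeR adjusted p = 0.0143). It was the 1 of 9 tested salvage genes called there, beside 22.4% of all genes. Its close copies make its level uncertain. The call was lost with the covariate for the most abundant gene (adjusted p = 0.390) and after thinning.

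Other NAD-consuming enzymes, mainly ADP-ribosyl transferases, had 1 of 17 tested genes higher for OC against YC, beside 5.25% of all genes. This was Parp14, a mono-ADP-ribosyl transferase. It ran from 14.1 to 21.0 CPM (median 18.9) in YC and from 23.7 to 36.4 CPM (median 24.9) in OC. Its ranges did not overlap, as for 3.21% of genes in this direction. Its log2 fold change was 0.56 ± 0.12 (edgeR adjusted p = 0.00283). In OC+SM it was 22.5 ± 3.32 CPM (SD, n = 6), which passed against neither control group (adjusted p = 0.247 against OC and 0.0805 against YC). Parp1, the main DNA damage-activated member, was at -0.09 ± 0.05 (adjusted p = 0.347). Between OC+SM and YC, 3 of 17 fell, beside 10.9% of all genes: Tiparp (-0.51 ± 0.10), Tnks (-0.32 ± 0.08) and Art4 (-0.69 ± 0.20). All 3 calls were lost with the covariate for the most abundant gene (adjusted p = 0.0764, 0.120 and 0.0787).

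Among 9 genes that remove or sense ADP-ribose, 0 passed for OC against YC in edgeR, beside 11.3% of all genes. At an unadjusted p under 0.05 there were 2, beside 24.0% of all genes. DESeq2 called 2, beside 2252 of all 16959 genes, and limma 1. Trpm2, a calcium channel that ADP-ribose opens, was the 1 gene of all 8 lists called for OC+SM against OC, beside 1.04% of all genes. It ran from 47.9 to 61.1 CPM (median 51.5) in OC and from 60.9 to 74.3 CPM (median 66.9) in OC+SM, with ranges that just met. The difference was 0.35 ± 0.08 (edgeR adjusted p = 0.0426). Against YC (37.2 to 56.3 CPM, median 46.6) it was 0.52 ± 0.08 (adjusted p = 0.000146). The call against OC held in 14 of 30 alternatives. With the covariate for the most abundant gene the log2 fold change was 0.22 (edgeR adjusted p = 0.650, 0.0620 before adjustment). The call was also lost in both limma fits (adjusted p = 0.0622 and 0.0635) and with a replicate block (edgeR adjusted p = 0.0588). It was lost too without any 1 of YC 1, 2, 4 or 6, OC 1, 2, 3, 5 or 6, or OC+SM 1, 2 or 3, with adjusted p from 0.0504 to 0.105.

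Genes of NADP, NAD redox, transport and repair included 1 of 10 higher for OC against YC, beside 5.25% of all genes. This was Nadk, the kinase that makes NADP from NAD. Nadk ran from 72.4 to 112 CPM (median 99.1) in YC, from 112 to 135 CPM (median 126) in OC and from 118 to 161 CPM (median 138) in OC+SM. Its difference was 0.35 ± 0.09 for OC against YC (edgeR adjusted p = 0.0112) and 0.51 ± 0.09 for OC+SM against YC (adjusted p = 0.000261), where the groups did not overlap, as for 4.85% of genes. In the latter comparison 4 of 10 were higher, beside 11.5% of all genes, and the median of the 10 was 0.24. Between the same groups 10 of 10 tested oocyte markers were lower, luteal marker sums did not overlap (15313 to 17912 CPM in OC+SM), and their part was not tested. The others were Naxd (0.35 ± 0.07) and Naxe (0.24 ± 0.06), which repair damaged NADH and NADPH, and Slc25a51 (0.20 ± 0.07), the mitochondrial NAD carrier. The Slc25a51 call was lost in 12 of 30 alternatives, among them those without YC 2, 3, 5 or 6 or without OC+SM 2 or 3. The Naxe call was lost with the covariate for the most abundant gene (adjusted p = 0.102).

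The proteins that sirtuins act on were followed by their transcripts only. Of 16 regulators of SIRT1 and nuclear substrates, 1 was lower for OC against YC, beside 6.03% of all genes, and none higher. Foxo1, a transcription factor of granulosa cells that SIRT1 deacetylates, ran from 100.4 to 181 CPM (median 122) in YC and from 64.4 to 83.5 CPM (median 74.6) in OC, without overlap, as for 4.17% of genes. The log2 fold change was -0.80 ± 0.13 (edgeR adjusted p = 0.000543), and it stood at 73.6 ± 11.2 CPM in OC+SM (SD, n = 6). Of 10 granulosa markers, 5 were called lower and none higher, while 3 had a positive log2 fold change, up to 0.62. Their sums overlapped, running from 1115 to 1623 CPM in YC and 774 to 1227 CPM in OC. The part of granulosa markers was not tested. Against YC, OC+SM had 2 of 16 lower, Foxo1 and Trp53 (-0.48 ± 0.13), beside 10.9% of all genes. Srebf1 (0.32 ± 0.10) was the 1 of 16 higher, beside 11.5% of all genes. With the covariate for the most abundant gene, Trp53 was at -0.26 (adjusted p = 0.294). The Srebf1 call was lost in 10 of 30 alternatives, among them those without YC 2 or 3 or without OC+SM 1, 3 or 4.

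Mitochondrial sirtuin substrates had 3 of 16 tested genes higher and 0 lower for OC against YC, beside 5.25% of all genes higher, with a median of 0.16. At an unadjusted p under 0.05 there were 10 of 16, beside 24.0% of all genes, and DESeq2 called 4 and limma 2. That unadjusted count was 4 of 17 other NAD-consuming and 2 of 10 NADP and redox genes. It was 4 of 16 SIRT1-related and 4 of 11 zinc-dependent histone deacetylase genes. Sod2 is the superoxide dismutase of the mitochondrial matrix and a Sirt3 substrate. It ran from 94.9 to 103 CPM (median 101) in YC and from 112 to 141 CPM (median 134) in OC. Its ranges did not overlap, as for 3.21% of genes in this direction. Its difference was 0.38 ± 0.06 (edgeR adjusted p = 0.000274). Acss1, a mitochondrial acetyl-CoA synthetase, rose by 0.57 ± 0.14 and Ndufa9, a complex I subunit, by 0.27 ± 0.07. The Ndufa9 call was lost on the TPM scale (limma adjusted p up to 0.0517). Between OC+SM and YC, 7 of 16 were higher and 0 lower, beside 11.5% of all genes higher, with a median of 0.20 and with Sdha (0.39 ± 0.06), Sod2 (0.41 ± 0.06) and Pdha1 (0.28 ± 0.07) among them. With the covariate for the most abundant gene, the calls of Pdha1 (adjusted p = 0.258) and Ndufa9 (0.129) against YC were lost. Summed luteal markers were higher beside them as given above. For OC+SM against YC, 5 of 8 luteal markers had a positive log2 fold change and 2 of 8 were called higher. The part of luteal markers was not tested.

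The zinc-dependent histone deacetylases, which do not use NAD, served as a comparison class of enzymes. For OC against YC, Hdac10 was higher (0.60 ± 0.16; edgeR adjusted p = 0.0130) and Hdac2 lower (-0.20 ± 0.06; adjusted p = 0.0395), so 2 of 11 passed, beside 11.3% of all genes. The Hdac2 call was lost without any 1 of YC 3, 4, 5 or 6 or OC 1, 4 or 5, and its adjusted p reached 0.127 among the alternatives. Compared with YC, OC+SM ovaries had Hdac10 higher and Hdac2 and Hdac4 lower, so 3 of 11 passed, beside 22.4% of all genes. Whether the share of these histone deacetylases differs from that of the sirtuins was not tested.

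**Figure D4:**
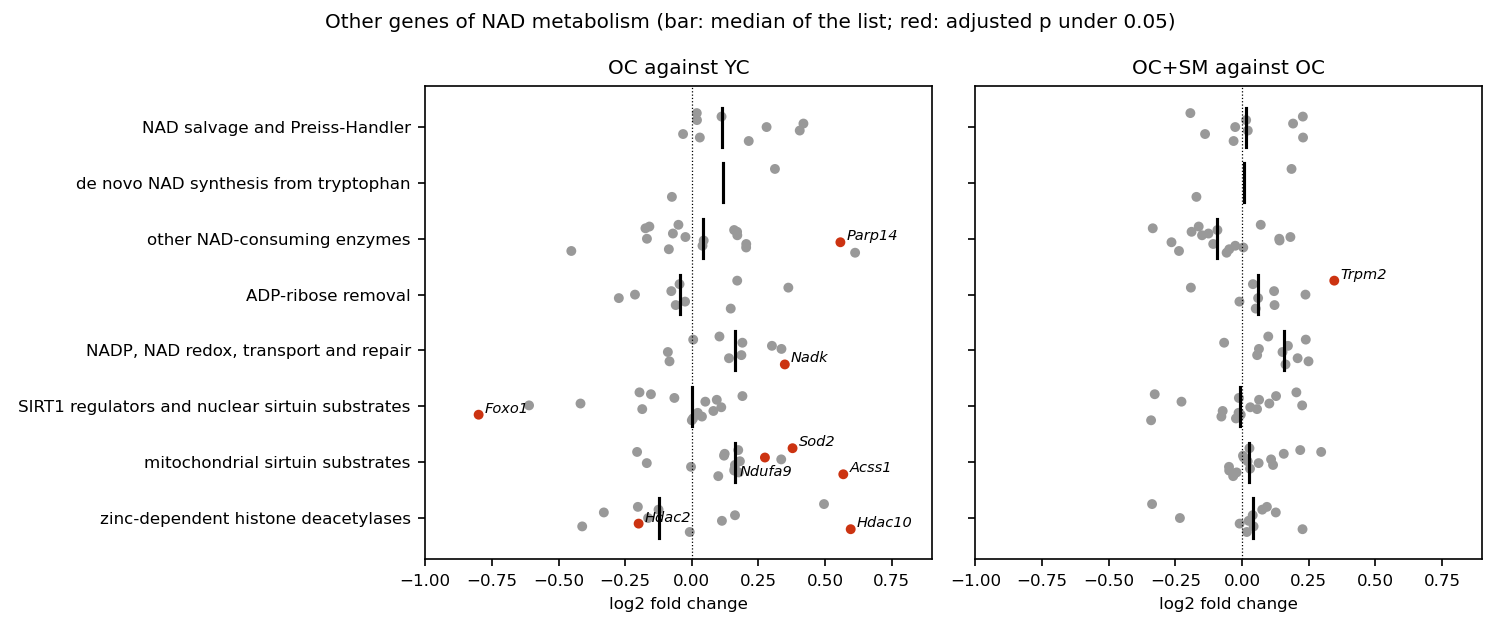
Log2 fold changes of every tested gene in 8 lists around NAD (points, 1 per gene) with the list median (bar), for OC against YC and OC+SM against OC, in red where the edgeR adjusted p was under 0.05. Red points are named: 8 genes appear in the first panel and Trpm2 alone in the second, and list medians lie between -0.12 and 0.16.

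In OC+SM against OC, the other 7 lists had 0 genes called in edgeR, beside 1.04% of all genes. At an unadjusted p under 0.05 there were 1 of 9 salvage, 0 of 2 de novo and 2 of 17 other NAD-consuming genes. There were also 3 of 10 NADP and redox, 1 of 16 SIRT1-related, 3 of 16 mitochondrial and 1 of 11 histone deacetylase genes. Of all genes, 16.9% had an unadjusted p under 0.05. DESeq2 called 1 NAD-consuming and 1 mitochondrial gene in these lists, beside 663 of all 16959 genes, and limma 1 mitochondrial gene. The highest list median was 0.16, in the NADP and redox list, where 9 of 10 genes had a positive log2 fold change.

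The genes whose levels most resembled each member were taken from 10378 genes by Pearson r of log2(CPM + 1) over the 18 libraries. Libraries share depth and group differences, so these are descriptions. Cd38 was closest to Mgll (r = 0.90), Deptor (0.90) and Tbc1d22a (0.88). After group means were subtracted it was closest to Antxr1 (0.81), Tbc1d22a (0.80) and Cd93 (0.76), so Tbc1d22a appeared both ways. Nampt was closest to Psmc2 (0.88), Rps6 (0.88) and Spcs2 (0.87), and within groups to Ptcd3 (0.84), Ncoa7 (0.84) and Acot9 (0.83), with no gene in both sets. Sirt1 had Tdrp in both (0.83 and 0.84) and Sirt3 had Wsb1 in both (0.83 and 0.86). Both measures use the same deviations within groups, so a gene in both sets is not separate support.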

How the data were processed

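RNA of 18 ovaries was sequenced from the 3′ end of polyadenylated transcripts (QuantSeq), per the labels' protocols. The deposited tables, 1 for each mouse, hold RSEM's expected counts and its TPM, made by the authors, per the file headers. Tools named in the submitters' processing notes are STAR 2.7.9a, RSEM 1.3.3 and FastQC 1.9, with the build GRCm39. The annotation, like the strand setting, was not given in the sources used here, so overlapping genes may share reads. Ensembl identifiers were matched to symbols (52083 of 55416) through an annotation of GRCm38, whose coordinates were not used for the counts. RefSeq promoters are from GRCm38.p6.

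Expected counts were rounded, filtered (filterByExpr: minimum count 10, minimum total 15), TMM-scaled and tested with edgeR 4.0.16 (robust quasi-likelihood, two-sided) in R 4.3.3, with all 18 libraries in 1 fit of 3 group means. P-values were adjusted by Benjamini-Hochberg over 16959 genes and called under 0.05. Standard errors were taken from the F statistic. Alternatives were DESeq2 1.42.0, limma 3.58.1 on log2(TPM + 1) and log2(TPM + 0.1), RLE scaling, other filters, fewer libraries, a replicate block, thinning, leaving out the most abundant gene and a covariate added later. On simulated data for OC against YC (16678 genes) the test recovered 53 of 100 genes changed by 0.5 log2. It recovered 91 of 100 changed by 1, and made 6 false calls in all. The changed genes had a mean of at least 5 CPM, the spread was the one fitted to these data, and all other genes were unchanged. Sirt4 (mean 4.78 CPM in YC and 4.64 CPM in OC) and Bst1 lay below that level. Replicates of a group differed beyond counting noise (lowest chi-square per degree of freedom 4.04). Each library is 1 mouse.

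The members and lists were chosen with earlier results of these data known. The genes named were the 10 members, up to 4 called genes with the smallest p per list and comparison, the 3 genes most like a member by each measure, and genes needed beside a result. Parp1, Nmnat1, Naprt, Nadsyn1 and Ric8a were named in addition. Intervals have a 95% confidence level.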

Additional observations from a re-analysis of the deposited data

Results flagged for a closer look

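In each of the 3 groups the 10 members' libraries were compared for 1 library far from the other 5, which made 30 comparisons, and chance alone gives about 1 in 20. In 2 of them a single OC+SM library stood apart. Sirt4 reached 8.41 CPM in OC+SM 4, where the next library was at 5.57 CPM; without it the OC+SM against OC log2 fold change of Sirt4 was 0.07 in place of 0.23. Sirt7 reached 36.6 CPM in OC+SM 2, where the next library was at 29.3 CPM; without it the OC+SM against OC log2 fold change of Sirt7 was -0.08 in place of 0.00. Neither fold change was called with or without these libraries.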

How the results depend on the processing

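Cd38 for OC against YC and for OC+SM against YC, and Nampt for OC+SM against YC, kept their direction and call in 30 of 30 alternatives, at 0.50 to 0.77, 0.37 to 0.66 and 0.27 to 0.40 log2. Sirtuins were called in none of the alternatives but the 1 given for Sirt5. The following had another sign than reported, all of them small and uncalled. Sirt2 for OC against YC was -0.08 with limma on log2(TPM + 1) and -0.08 on log2(TPM + 0.1), and -0.04 to 0.07 when 1 library was left out. Sirt4 for OC against YC was 0.06 after thinning and -0.09 to 0 when 1 library was left out. For OC+SM against OC, Sirt1 was -0.05 and -0.06 with limma, and Sirt7 was 0.01 without a filter, 0.01 in both limma fits and 0.02 without YC 3 and OC+SM 6. Leaving out 1 library gave -0.05 to 0.15 for Sirt3, -0.03 to 0.07 for Sirt5, -0.10 to 0.06 for Sirt6 and -0.08 to 0.03 for Sirt7. For OC+SM against YC, Sirt1 was 0.05 and Sirt3 was 0 without YC 3 and OC+SM 6, and with the covariate Sirt1 was 0.03 and Sirt6 -0.09. Leaving out 1 library gave -0.06 to 0.02 for Sirt1 and -0.20 to 0 for Sirt3. The cause was not tested.

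Over all genes, 176 were called for OC+SM against OC, against 663 with DESeq2, 45 from the 12 libraries compared and 483 without YC 3 and OC+SM 6. With the covariate edgeR called 0, with 1356 at an unadjusted p under 0.05. Leaving out 1 library gave 32 (without OC+SM 3) to 593 (without OC+SM 4) genes, and 0 to 1 members, and DESeq2 called 1 member. For OC+SM against YC, 1368 genes were called with the covariate, beside 3795 without it. The calls of Pnp, Tiparp, Tnks, Art4, Naxe, Trp53, Ndufa9, Pdha1, Hdac2, Slc25a51 and Srebf1 were lost there. As given above, the covariate and the treatment cannot be fully told apart. With limma on log2(TPM + 1), 559 of 1664 called genes were higher for OC against YC, beside 890 of 1912 in edgeR, and 1365 of 3375 for OC+SM against YC, beside 1954 of 3795. The cause was not tested. Replicate numbers did not pair the libraries: over 18 same-numbered pairs the correlation of deviations ran from -0.18 to 0.11, with 1 over 0.1. A replicate block gave 1756, 139 and 3535 called genes and 1, 0 and 2 called members for OC against YC, OC+SM against OC and OC+SM against YC. Bst1 has at most 20 counts a library, too few for fold changes here.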
